A study of Homo sapiens with 9 samples.

Results

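The expression of NFE2L2, which encodes the transcription factor NRF2, and of 8 antioxidant genes that NRF2 is known to activate was examined in MDA-MB-453, a cell line established from human breast cancer. The 9 genes were taken by name (NFE2L2, HMOX1, NQO1, GCLM, GCLC, TXNRD1, SRXN1, TXN and GSR), by a rule that uses no measured value but was set with earlier results of these data known, out of 19930 genes with values. All 9 libraries were labelled as MDA-MB-453 cells, which were transfected with siRNA by lipofection, in 3 groups of 3 libraries. Cells of 2 groups carried si-LINC00673-1 or si-LINC00673-2, each directed at the long noncoding RNA LINC00673, and cells of the control group carried si-NC, a scramble siRNA. The labels only number the 2 knockdown groups, so which siRNA each carried is an assumption taken from the numbering of the study. The labels give 48 h after transfection as the harvest time for qRT-PCR, with no separate time for sequencing, and do not say whether the libraries of a group came from separate cultures. The P values below therefore measure the spread between libraries, which may be technical. The level of LINC00673 was not analysed here.

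In unstressed cells, the adaptor protein KEAP1 holds NRF2 in the cytoplasm and passes it to the CUL3-RBX1 ubiquitin ligase for degradation. Oxidants and electrophiles modify KEAP1, NRF2 then accumulates, enters the nucleus and pairs with a small MAF protein on antioxidant response elements. The genes it switches on make glutathione, keep glutathione and thioredoxin reduced, detoxify quinones and break down haem, and many breast and lung cancers use this programme to tolerate oxidative stress. Because NRF2 is controlled mainly through the stability of its protein, the mRNA level of NFE2L2 does not measure its activity.

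The sequence that NRF2 binds is shown first, because NRF2 is known to act on its targets through it. The core TGACNNNGC was searched on both strands of the RefSeq promoter windows of GRCh38.p14 (250 bases before to 50 bases from the start of a gene), where N is any base, and 13.3% of all 35116 windows held it. Windows were listed for 7 of the 9 genes (9 windows), so HMOX1 and GSR were not searched, and matches were found in 3 of these windows, those of GCLM and of 2 start sites of TXNRD1. In the sequences printed here, read 5′ to 3′ on the strand of the gene, capitals mark the core or its reverse complement. The 29 bases printed for GCLM lay at chr1:93909446-93909474 on the minus strand. The core within them started at position -34 from the start site of the gene. The stretches printed for TXNRD1, each with its core inside, lay on the plus strand at chr12:104215670-104215698, chr12:104215761-104215789 and chr12:104286920-104286948. A match of these letters is a description and does not show that NRF2 was bound there. Bases outside the windows were not searched, so a window without a match does not show that its gene lacks the element.
GCLM: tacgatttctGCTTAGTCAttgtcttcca
TXNRD1, site 1: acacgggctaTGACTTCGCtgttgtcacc
TXNRD1, site 2: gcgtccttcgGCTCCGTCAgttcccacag
TXNRD1, site 3: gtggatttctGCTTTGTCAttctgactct

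The groups were defined by the siRNAs, whose antisense strands are shown with the seed (bases 2 to 8) in capitals, since a seed can also pair with other mRNAs. Which strand goes with which group rests on the assumed numbering. In transcripts of GENCODE release 29, the site of the si-LINC00673-1 seed was present in 30.5% of the 11190 tested genes that have a transcript there, and among the 9 genes in NFE2L2 and GCLC. The site of the si-LINC00673-2 seed was present in 35.7% of genes, and here in NFE2L2, HMOX1, GCLM, TXNRD1 and SRXN1. The si-NC seed had a site in 9.79% of genes, and here in NFE2L2. The longest run of bases that a transcript of the 9 genes shared with the target was 10 for si-LINC00673-1 (GCLC) and 8 for si-NC (HMOX1 and TXNRD1). For si-LINC00673-2 it was 15, in GSR, a gene with no site for that seed. What these matches contribute to the values below was not tested.
si-LINC00673-1: aGAAACCUcugauuccacctt
si-LINC00673-2: uUAUUAUUugagacagggucu
si-NC: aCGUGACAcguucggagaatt

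Expression is given as FPKM, in which the fragments of a gene are divided by its transcript length and by the fragments mapped in the library, so that genes of different length can be set side by side. The estimated depth was 23.5 to 27.9 M fragments per library, highest in the si-NC libraries (26.1 to 27.9 M), and within a group log2(FPKM + 1) correlated across genes, which are not independent replicates, with r between 0.9945 and 0.9959. Of 7 markers expected in MDA-MB-453, the keratins KRT8 and KRT18 (lowest value 1680 FPKM), ERBB2, FGFR4, XBP1 and AGR2 were expressed, whereas FOXA1, a transcription factor that this line is known to express, was listed at 0 to 0.04 FPKM in the 9 libraries. This goes against the label. The identity of the cells was not tested, and the name MDA-MB-453 is used here as the label gives it. The summed level of the 7 markers was 5940 to 6424 FPKM in si-NC libraries, 4800 to 5302 with si-LINC00673-1 and 4897 to 5367 with si-LINC00673-2. This sum came mostly from KRT8 (3011 to 3773 FPKM) and KRT18 (1680 to 2509 FPKM over the 9 libraries). The summed level of 6 markers of other cells (ESR1, KRT5, KRT14, PTPRC, COL1A1 and PECAM1) was 4.1 to 4.91 FPKM in si-NC libraries, 5.96 to 6.48 with si-LINC00673-1 and 6.07 to 7.9 with si-LINC00673-2, and it came mostly from COL1A1 (3.49 to 7.08 FPKM over the 9 libraries). The part of these shifts in the results was not tested, and in bulk RNA, fewer cells of a type and less RNA per cell cannot be told apart.

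The 9 genes differed widely in level, and their order was the same in the 3 groups. In si-NC libraries, TXN, the small thiol protein thioredoxin, was highest with 331 ± 9.87 FPKM (SD, n = 3), above 98.6% of the 12884 tested genes. NQO1, the quinone reductase, followed with 194 ± 4.75 FPKM, and TXNRD1, the reductase that recharges thioredoxin, with 48.4 ± 1.93 FPKM. GSR, which reduces oxidised glutathione, stood at 33.1 ± 0.337 FPKM, NFE2L2 at 29.4 ± 1.23 FPKM, and SRXN1, the sulfiredoxin that repairs overoxidised peroxiredoxins, at 26.8 ± 0.202 FPKM. GCLC, the catalytic subunit of glutamate-cysteine ligase, had 17.7 ± 0.495 FPKM. The lowest were GCLM, the modifier subunit of the same ligase, with 3.41 ± 0.348 FPKM, and HMOX1, the inducible haem oxygenase, with 2.04 ± 0.085 FPKM, above 12.5% of the tested genes. Neighbours in this order did not overlap between their libraries in the si-NC group, while GCLM and HMOX1 overlapped in both LINC00673 siRNA groups. The value of SRXN1 is uncertain, since 84.5% of the 100-base windows of its transcript also occur in the gene AL121758.1, and reads from these cannot be told apart.

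**Figure D1:**
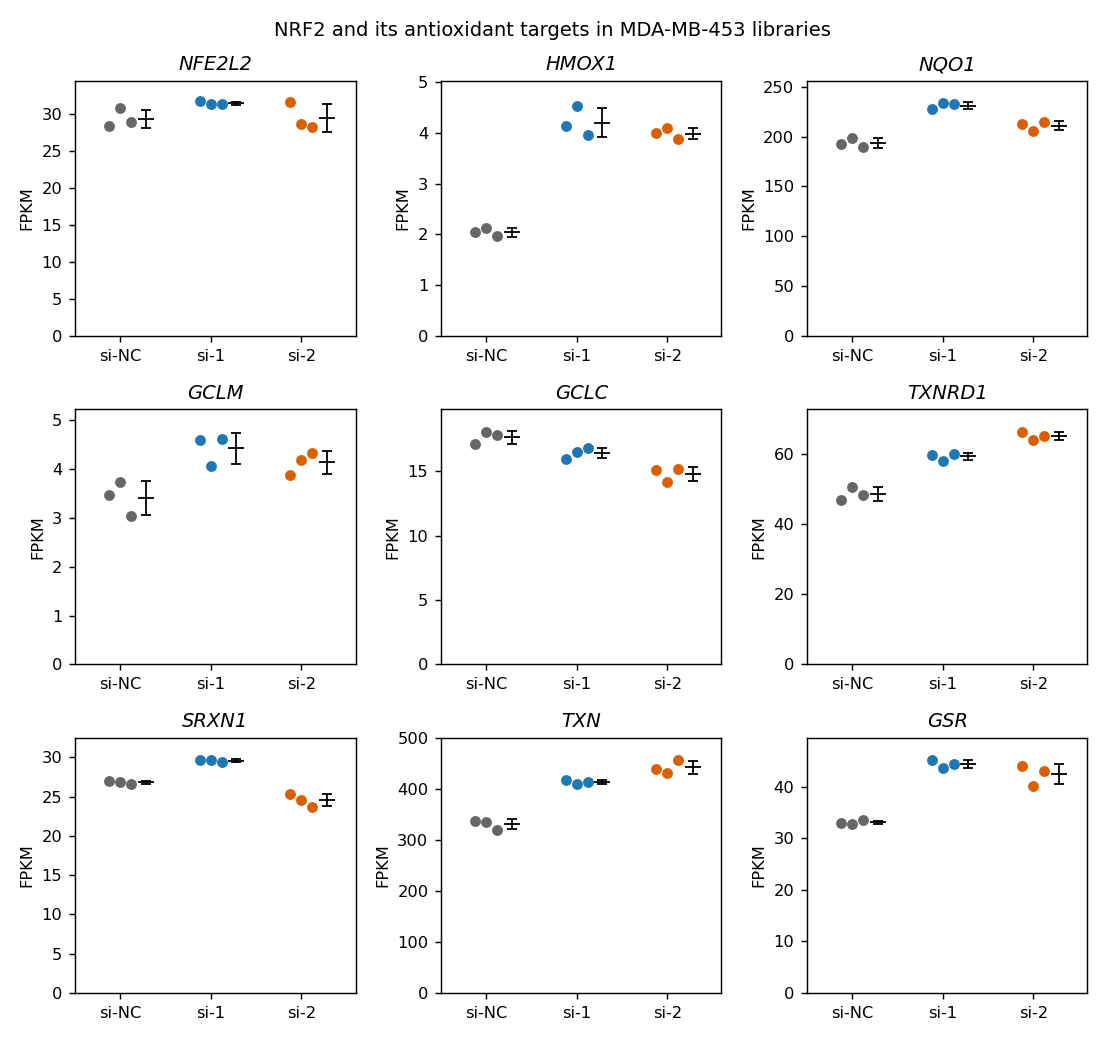
FPKM of the 9 genes (vertical axes, each from 0) in the 9 libraries, with points for single libraries of si-NC, si-LINC00673-1 (si-1) and si-LINC00673-2 (si-2) and a bar with whiskers for the mean and SD of 3 libraries. HMOX1 stood at 1.96 to 2.13 FPKM in si-NC libraries and at 3.87 to 4.52 FPKM in the 6 siRNA libraries, whereas NFE2L2 of the si-LINC00673-2 libraries overlapped that of the si-NC libraries.

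The comparison of each LINC00673 siRNA with si-NC asked how the antioxidant genes stood after the knockdown. Genes were called by the criteria of the study, namely a change of 1.3-fold or more (0.38 on the log2 scale) and an unadjusted P of at most 0.05, from limma on log2(FPKM + 1) over the 12884 genes whose mean reached 1 FPKM. Fold changes are on that scale, where the added 1 FPKM makes changes of low genes look smaller, and adjusted P values are by Benjamini-Hochberg over all tested genes. With si-LINC00673-1, HMOX1 and GSR rose, 2 of 9 genes, where 11.1% of all tested genes rose. With si-LINC00673-2, HMOX1, TXNRD1 and TXN rose, 3 of 9 genes, where 11% of all tested genes rose. No gene of the 9 was called lower by limma with either siRNA, where 15.6% and 23.1% of all tested genes were, and with no fold limit 1 gene (GCLC) and 2 genes (GCLC and SRXN1) lay below 0 at an adjusted P of at most 0.05, where 32.3% and 44.8% of all tested genes did. At an unadjusted P of at most 0.05 these were the same genes. The value of GCLC with si-LINC00673-1 was close to this limit, and that of SRXN1 with si-LINC00673-2 missed it under 3 of the 4 other scalings, as given with each gene.

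The median log2 fold change of the 9 genes was 0.28 with si-LINC00673-1, where that of all tested genes was 0.0032, and 8 of the 9 genes lay above 0 as did 50.4% of all tested genes, although NFE2L2 turned to -0.023 relative to GAPDH. With si-LINC00673-2 the median was 0.22, where that of all tested genes was -0.095, and 7 of the 9 genes lay above 0 as did 39.8% of all tested genes. GCLC and SRXN1 lay below 0, and relative to GAPDH, which itself rose with this siRNA, only HMOX1 of the 9 genes stayed above 0. Each si-LINC00673-1 library lay above each si-NC library in 8 of 9 genes, where this held for 35% of all tested genes, and below in 1 gene, GCLC, where it held for 35.1%. Each si-LINC00673-2 library lay above each si-NC library in 6 of 9 genes, where this held for 26.9%, and below in 2 genes, GCLC and SRXN1, where it held for 46.1%. These counts are on FPKM as deposited, and both comparisons use the same si-NC libraries.

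**Figure D2:**
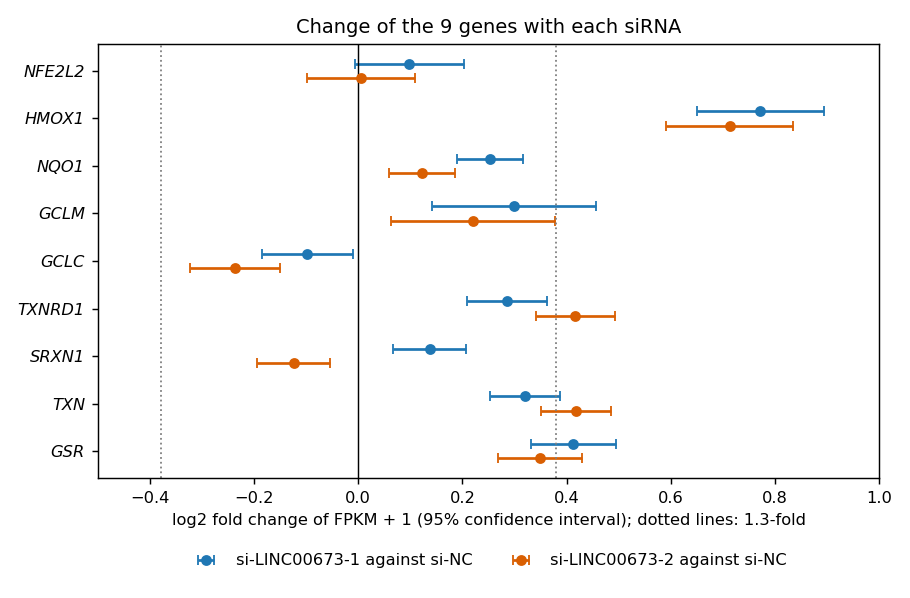
Log2 fold change of FPKM + 1 of the 9 genes (horizontal axis) with si-LINC00673-1 and si-LINC00673-2 against si-NC, with 95% confidence intervals from limma as whiskers and the 1.3-fold limits as dotted lines. HMOX1 lay at 0.77 and 0.71 with intervals above the limit, and GCLC lay below 0 with both siRNAs.

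NFE2L2 (NCBI Gene ID 4780, chromosome 2 from 178095031 to 178129859 on the minus strand of GRCh37.p13, the build of the files) had 28.44, 30.76 and 28.87 FPKM in the si-NC libraries. The si-LINC00673-1 libraries had 31.71, 31.34 and 31.37 FPKM, and the si-LINC00673-2 libraries 31.63, 28.62 and 28.21 FPKM. Each si-LINC00673-1 library lay above the si-NC libraries, by a small margin, while of the si-LINC00673-2 libraries 1 lay above, 1 among and 1 below the si-NC libraries. Its log2 fold change came to 0.098 for si-LINC00673-1 (95% confidence interval -0.0062 to 0.20, adjusted P = 0.090) and to 0.0052 for si-LINC00673-2 (-0.099 to 0.11, adjusted P = 0.93). Neither met the criteria, and the intervals reach at most 0.20 on the log2 scale. Without the highest si-LINC00673-2 library the second value was -0.045, and relative to GAPDH it was -0.42, a call as lower. Relative to GAPDH, 8389 of the 12884 tested genes were called lower with this siRNA.

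HMOX1, which breaks haem down to biliverdin, iron and carbon monoxide and is among the most inducible NRF2 targets, showed the largest rise of the 9 genes. The gene (NCBI Gene ID 3162) lies on chromosome 22 from 35777060 to 35790207 on the plus strand. It had 2.04, 2.13 and 1.96 FPKM in si-NC libraries, 4.13, 4.52 and 3.95 FPKM with si-LINC00673-1, and 3.99, 4.10 and 3.87 FPKM with si-LINC00673-2. All 6 siRNA libraries lay far above the si-NC libraries. The mean FPKM was 2.06 times that of si-NC with si-LINC00673-1 and 1.95 times with si-LINC00673-2. By the estimated depth, this is 81 to 85 fragments in a si-NC library and 136 to 166 in a siRNA library. HMOX1 rose by a log2 fold change of 0.77 with si-LINC00673-1 (standard error 0.055, adjusted P = 1.7e-06) and of 0.71 with si-LINC00673-2 (standard error 0.055, adjusted P = 1.8e-06). These changes exceeded those of 98.1% and 96.2% of the tested genes. With 0.1 FPKM in place of 1 FPKM added before the logarithm, they were 1.0 and 0.93. Relative to GAPDH, the change with si-LINC00673-2 was 0.28, below the fold limit.

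NQO1, which reduces quinones by 2 electrons and is widely used as a readout of NRF2, changed little on top of a high level. The gene (NCBI Gene ID 1728) lies on chromosome 16 from 69743304 to 69760571 on the minus strand. It had 192.66, 199.07 and 189.79 FPKM in si-NC libraries, 227.29, 233.73 and 232.48 FPKM with si-LINC00673-1, and 212.71, 205.77 and 214.99 FPKM with si-LINC00673-2. Each siRNA library lay above each si-NC library, and the si-LINC00673-1 libraries lay highest. The log2 fold changes of 0.25 (adjusted P = 3.4e-05) and 0.12 (adjusted P = 0.0031) did not reach the 1.3-fold limit, and the second turned to -0.31 relative to GAPDH.

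The subunits of glutamate-cysteine ligase, which makes the first bond of glutathione, lay on opposite sides of si-NC. GCLM (NCBI Gene ID 2730, chromosome 1 from 94350755 to 94375154, minus strand) had 3.47, 3.73 and 3.04 FPKM in si-NC libraries, 4.6, 4.06 and 4.62 FPKM with si-LINC00673-1, and 3.88, 4.19 and 4.33 FPKM with si-LINC00673-2. The siRNA libraries lay above the si-NC libraries, with a narrow gap. The log2 fold changes were 0.30 (adjusted P = 0.0039) and 0.22 (adjusted P = 0.018), below the fold limit, and by limma the second had an adjusted P of 0.0598 without the third si-LINC00673-2 library and of 0.0708 without the third si-NC library. GCLC (NCBI Gene ID 2729, chromosome 6 from 53362139 to 53409927, minus strand) had 17.09, 18.03 and 17.83 FPKM in si-NC libraries, 15.98, 16.52 and 16.79 FPKM with si-LINC00673-1, and 15.09, 14.21 and 15.20 FPKM with si-LINC00673-2. Here the siRNA libraries lay below the si-NC libraries, those of si-LINC00673-2 furthest. The log2 fold changes were -0.098 (adjusted P = 0.0495) and -0.24 (adjusted P = 0.00036) and also missed the fold limit. The first of these adjusted P values was above 0.05 in 7 of the 9 fits that left out 1 library (0.0373 to 0.157 by limma), and was 0.0818 with a replicate block and 0.168 after a correction for transcript length.

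The ratio of the subunits within a library does not depend on how libraries are scaled, apart from the 1 FPKM added. The log2 ratio of GCLM to GCLC was -2.02, -2.01 and -2.22 in si-NC libraries, -1.60, -1.79 and -1.66 with si-LINC00673-1, and -1.72, -1.55 and -1.60 with si-LINC00673-2. GCLC mRNA was the more abundant in every library, and the gap was smaller in each siRNA library than in each si-NC library. The ratio was higher by 0.40 with si-LINC00673-1 and by 0.46 with si-LINC00673-2 (two-sided P = 0.1 for each by exact permutation, the smallest that 3 libraries against 3 allow). Single libraries left out in turn gave 0.33 to 0.45 and 0.39 to 0.50.

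GSR, which uses NADPH to return oxidised glutathione to its reduced form, is the other glutathione gene among the 9. The gene (NCBI Gene ID 2936) lies on chromosome 8 from 30472495 to 30585486 on the minus strand. It had 32.96, 32.85 and 33.48 FPKM in si-NC libraries, 45.20, 43.61 and 44.37 FPKM with si-LINC00673-1, and 44.00, 40.25 and 43.08 FPKM with si-LINC00673-2. The 6 siRNA libraries stood well above the si-NC libraries, and the lowest was the second si-LINC00673-2 library. GSR rose by a log2 fold change of 0.41 with si-LINC00673-1 (standard error 0.036, adjusted P = 6.6e-06). With si-LINC00673-2 the log2 fold change was 0.35 (standard error 0.036, adjusted P = 1.5e-05), a 1.27-fold difference that missed the limit. The calls of GSR turned on small shifts, since the first fell to 0.35 after a GC correction and the second reached 0.39 without the second si-LINC00673-2 library and 0.45 after median-ratio scaling. Relative to GAPDH the second turned to -0.080.

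The thioredoxin genes TXN and TXNRD1 had the same order of groups. TXN (NCBI Gene ID 7295, chromosome 9 from 113006092 to 113018920, minus strand) had 338.12, 335.93 and 320.03 FPKM in si-NC libraries, 417.56, 410.16 and 414.21 FPKM with si-LINC00673-1, and 440.05, 432.16 and 456.47 FPKM with si-LINC00673-2. TXNRD1 (NCBI Gene ID 7296, chromosome 12 from 104609557 to 104744085, plus strand) had 46.68, 50.51 and 48.14 FPKM in si-NC libraries, 59.71, 58.01 and 59.93 FPKM with si-LINC00673-1, and 66.11, 63.74 and 65.08 FPKM with si-LINC00673-2. For both genes the si-NC libraries were lowest and the si-LINC00673-2 libraries highest, with no overlap between the 3 groups. With si-LINC00673-2, TXN rose by a log2 fold change of 0.42 (standard error 0.030, adjusted P = 1.2e-06) and TXNRD1 by 0.42 (standard error 0.034, adjusted P = 2.9e-06). Relative to GAPDH these values turned to -0.011 and -0.012. With si-LINC00673-1 the values were 0.32 for TXN (adjusted P = 9.8e-06) and 0.28 for TXNRD1 (adjusted P = 5.2e-05), below the fold limit, although TXN reached 0.41 after a correction for transcript length.

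The log2 ratio of TXN to TXNRD1 was 2.75 ± 0.0703 (SD, n = 3) in si-NC libraries, 2.78 ± 0.016 (n = 3) with si-LINC00673-1 and 2.75 ± 0.0381 (n = 3) with si-LINC00673-2. It differed from si-NC by 0.036 and 0.00077, within the spread between libraries (exact permutation test, two-sided P = 0.4 and 1). These ratios overlapped between the groups, whereas those of the ligase subunits overlapped between the siRNA groups but not with si-NC.

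SRXN1 (NCBI Gene ID 140809, chromosome 20 from 627259 to 634014, minus strand) was the gene whose 2 siRNA groups lay on opposite sides of si-NC. It had 27.00, 26.85 and 26.60 FPKM in si-NC libraries, 29.68, 29.72 and 29.39 FPKM with si-LINC00673-1, and 25.30, 24.59 and 23.74 FPKM with si-LINC00673-2. The groups did not overlap, with si-LINC00673-1 highest and si-LINC00673-2 lowest. The log2 fold changes of 0.14 (adjusted P = 0.0033) and -0.12 (adjusted P = 0.0052) were small and below the fold limit, and the second became -0.021 after median-ratio scaling (adjusted P = 0.586), -0.040 after the GC correction (adjusted P = 0.301) and 0.0028 after a correction for transcript length (adjusted P = 0.946). These values carry the doubt from the sequence shared with AL121758.1.

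The siRNAs were then compared with each other, to see where their effects on the 9 genes differed. By limma, 0 of the 9 genes met the criteria, where 7.64% of all tested genes did. With no fold limit, 5 of 9 genes had an adjusted P of at most 0.05, where 44% of all tested genes had, and the same 5 had an unadjusted P of at most 0.05. SRXN1 was lower with si-LINC00673-2 than with si-LINC00673-1 by a log2 difference of -0.26 (adjusted P = 0.00022), GCLC by -0.14 (adjusted P = 0.017) and NQO1 by -0.13 (adjusted P = 0.0051). SRXN1 kept an adjusted P of at most 0.05 under the 4 other scalings (-0.57 to -0.16). NQO1 and GCLC did not, with -0.023 (adjusted P = 0.544) and -0.038 (adjusted P = 0.452) after median-ratio scaling, -0.039 (0.214) and -0.040 (0.332) after the GC correction, and -0.063 (0.146) and -0.032 (0.559) after the length correction. TXNRD1 was higher by 0.13 (adjusted P = 0.012) and TXN by 0.097 (adjusted P = 0.025), and both turned below 0 relative to GAPDH (-0.18 and -0.21). After the length correction TXN was at 0.021 (adjusted P = 0.655), and with the replicate block its adjusted P was 0.0585. With 1 library left out, the adjusted P of GCLC was above 0.05 in 3 of 9 fits by limma (up to 0.065) and that of TXN in 3 of 9 (up to 0.0908), each time without a siRNA library. For HMOX1 the difference was -0.059 (95% confidence interval -0.18 to 0.063), for GSR -0.064 (-0.15 to 0.017), for GCLM -0.079 (-0.24 to 0.078) and for NFE2L2 -0.093 (-0.20 to 0.011). Without the first si-LINC00673-2 library NFE2L2 came to -0.14 (adjusted P = 0.0162). These 4 intervals include 0 and do not show that the siRNAs acted alike. The median over all tested genes in this comparison was -0.081.

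The size of these changes depended on how the libraries were scaled. Scaling by the median ratio of the tested genes brought the median of all genes with si-LINC00673-2 from -0.095 to -0.0041, and changed the split of its calls from 1411 higher and 2974 lower to 1975 higher and 2246 lower. GSR then met the criteria with both siRNAs. GAPDH, a glycolytic enzyme that the study used as the reference in qRT-PCR, had a log2 fold change of 0.12 with si-LINC00673-1 (adjusted P = 0.0028) and of 0.43 with si-LINC00673-2 (adjusted P = 5.0e-07). Relative to GAPDH the median of all tested genes was -0.12 and -0.52, a shift that is the same for every gene and leaves their order as it was. In that order, TXN lay above 85% and 90.3% of the tested genes, GSR above 90.1% and 87.5%, TXNRD1 above 82% and 90.3%, GCLM above 83.3% and 80%, NQO1 above 79.3% and 72.4%, and NFE2L2 above 62.3% and 60.7%. With si-LINC00673-2, NFE2L2 (-0.42), GCLC (-0.67) and SRXN1 (-0.55) met the criteria as lower relative to GAPDH, as did 8389 of all 12884 tested genes. In the same order SRXN1 lay above 67% and 47% and GCLC above 37.6% and 35.5%.

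**Figure D3:**
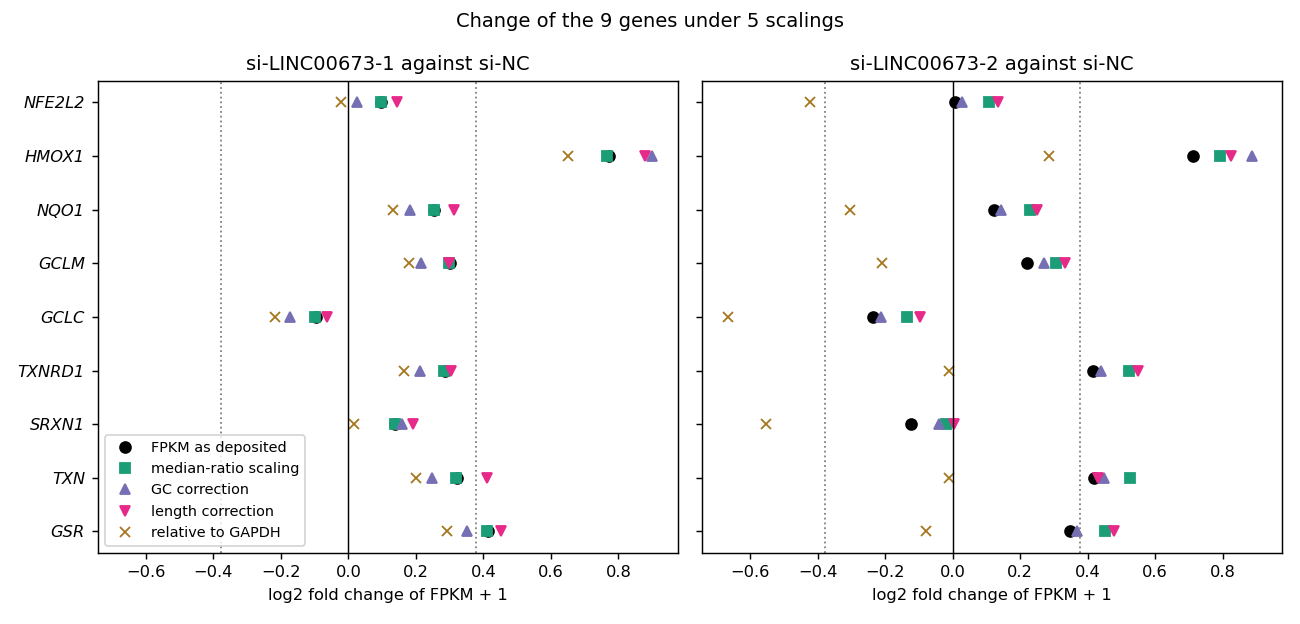
Log2 fold change of FPKM + 1 of the 9 genes (horizontal axes) against si-NC for each siRNA under 5 scalings, with the 1.3-fold limits as dotted lines. Division by GAPDH moved the 9 genes to the left, by 0.12 with si-LINC00673-1 and by 0.43 with si-LINC00673-2, where HMOX1 at 0.28 was the only gene left above 0.

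Expression with the siRNAs also moved with the GC content of transcripts, which bears on genes of different composition. Among the GC-richest genes (at least 58.6% GC, 2278 genes), the median log2 fold change stood at -0.29 for si-LINC00673-1 and at -0.34 for si-LINC00673-2. None of the 9 genes belonged to these, and HMOX1, with 58.1% GC, was the closest. Among genes of 52.2% to 58.6% GC, which held HMOX1 and SRXN1, the medians were -0.049 and -0.12. After the GC correction HMOX1 stood at 0.90 and 0.89, TXN at 0.25 and 0.45, TXNRD1 at 0.21 and 0.44, and GSR at 0.35 and 0.37. The genes called with si-LINC00673-2 were then HMOX1, TXNRD1 and TXN as before, and with si-LINC00673-1 HMOX1.

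Other genes of the NRF2 pathway were examined in 7 lists of 78 genes, of which 75 were tested and SOD3, AKR1B10 and CBR3 fell below the expression filter. With si-LINC00673-1, 9 of the 75 rose (12%) and 9 fell (12%), where 11.1% of all tested genes rose and 15.6% fell. With si-LINC00673-2, 13 rose (17.3%) and 13 fell (17.3%), where 11% rose and 23.1% fell. With both siRNAs, 8 rose and 7 fell. The share of all tested genes called in the same direction with both was not counted. Both comparisons use the same si-NC libraries, so the 8 and 7 are a description only. The median log2 fold changes of the 75 genes were -0.065 and -0.065, where those of all tested genes were 0.0032 and -0.095. The wider pathway held genes in both directions. After median-ratio scaling, 15 rose and 8 fell with si-LINC00673-2, where 1975 and 2246 of all 12884 tested genes did. After the GC correction 18 rose and 10 fell, where 1650 and 1750 of 11388 genes did. After the length correction 17 rose and 9 fell, where 2041 and 2147 of 12884 genes did. With si-LINC00673-1 the length correction gave 13 and 7, where 1667 and 1769 of 12884 genes rose and fell. Division by GAPDH gave 4 and 14 with this siRNA, where 831 and 3011 of 12884 genes rose and fell. RBX1, GPX3, GLRX3, ABCC1 and EPHX1 then lost their calls as higher. Relative to GAPDH each value with si-LINC00673-2 is lower by 0.43, which left 1 gene, GLRX, called higher and 46 lower. Of the list genes called higher with this siRNA on FPKM as deposited, GLRX3, ABCC1, TXNRD2, FTH1 and EPHX1 turned below 0. Of all 12884 tested genes, 340 were then higher and 8389 lower. Genes named from these lists beyond the rule for named genes were chosen after their values were seen.

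Among the 11 regulators of NRF2, 1 rose (9.09%) and 3 fell (27.3%) with each siRNA. Of all tested genes, 11.1% and 11% rose and 15.6% and 23.1% fell. KEAP1, the inhibitor of NRF2, fell with both, from 11.8 ± 0.407 FPKM (SD, n = 3) in si-NC libraries to 8.05 ± 0.352 FPKM (n = 3) and 5.95 ± 0.439 FPKM (n = 3), by log2 fold changes of -0.50 (adjusted P = 2.5e-05) and -0.88 (adjusted P = 4.2e-07). KEAP1 has a GC content of 60.3% and lies among the GC-richest genes, whose medians were also below 0, and after the GC correction its values were -0.29, below the fold limit, and -0.63. RBX1, the RING subunit of the ligase that KEAP1 serves, rose with both (0.40 and 0.61, but 0.28 and 0.19 relative to GAPDH and 0.32 with si-LINC00673-1 after the GC correction, all below the limit), and CUL3, its scaffold, stood at 0.30 and 0.13, the second -0.30 relative to GAPDH. NFE2L1, the relative of NRF2 that controls proteasome genes, fell with both (-0.48 and -0.52) and kept these calls under the 4 other scalings. BTRC, an adaptor of another ligase that degrades NRF2, fell with si-LINC00673-2 (-0.42, but -0.34 after median-ratio scaling and -0.32 after the length correction, below the limit) and stood at -0.13 with si-LINC00673-1.

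The small MAF partners did not move as a group. MAFK, with 63.4% GC, fell with si-LINC00673-1 (-0.72, but -0.37 after the GC correction, below the limit) and stood at -0.13 with si-LINC00673-2, where the correction turned it to 0.24. MAFF, with 61.9% GC, stood at -0.25 and 0.30, with no call. After the GC correction it came to 0.032 and 0.61, and with si-LINC00673-2 it was called higher there, after median-ratio scaling (0.40) and after the length correction (0.43), but turned to -0.13 relative to GAPDH. MAFG stood at -0.050 and 0.023. BACH1, which represses HMOX1 and competes with NRF2 for its sites, stood at 0.094 (adjusted P = 0.17) and -0.056 (adjusted P = 0.39), with no call. SQSTM1, which binds KEAP1 for autophagy, stood at 0.14 and 0.24, and the second was called higher after the GC correction (0.41) and turned to -0.19 relative to GAPDH. GSK3B, the kinase that marks NRF2 for BTRC, stood at 0.13 and -0.083. Relative to GAPDH, MAFK (-0.56), GSK3B (-0.51), BACH1 (-0.48) and MAFG (-0.40) met the criteria as lower with si-LINC00673-2, as did 8389 of all 12884 tested genes.

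Of 5 genes that supply NADPH, the electron donor of both GSR and TXNRD1, 0 rose by limma with either siRNA (also 0 above 0 with no fold limit), 1 fell with si-LINC00673-1 (PGD, 20% of the list where 15.6% of all tested genes fell) and 2 with si-LINC00673-2 (PGD and IDH1, 40% where 23.1% fell). PGD, of the pentose phosphate pathway, fell with both, from 71.4 ± 0.695 FPKM in si-NC libraries to 45.0 ± 1.10 and 45.3 ± 1.82 FPKM (n = 3 each), by -0.65 with each siRNA. The list medians of -0.22 and -0.25 lay below those of all genes. Of all tested genes, 11.1% and 11% rose by the criteria. At an unadjusted P of at most 0.05 with no fold limit, 4358 and 3468 of 12884 lay above 0.

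Of 18 genes of glutathione use and synthesis, 3 rose (GLRX, GLRX3 and GPX3) and 3 fell (GSTK1, GSTZ1 and GLRX5) with both siRNAs, and MGST3 rose and GPX2 fell with si-LINC00673-2, which had 4 in each direction. These were 16.7% in each direction with si-LINC00673-1 and 22.2% with si-LINC00673-2. Of all tested genes, 11.1% rose and 15.6% fell with si-LINC00673-1, and 11% rose and 23.1% fell with si-LINC00673-2. GLRX, the cytosolic glutaredoxin, rose by 0.64 and 0.86, and GPX3, a secreted glutathione peroxidase, by 0.50 and 0.59 from a low level of 1.44 ± 0.110 FPKM (n = 3). GSTK1, a glutathione transferase of mitochondria and peroxisomes, fell by 0.69 and 0.86 on the log2 scale. Of 7 genes of cystine uptake and conjugate export, 1 rose and 1 fell with si-LINC00673-1 (14.3% each). With si-LINC00673-2, 1 rose (14.3%) and 2 fell (28.6%). SLC7A11, which imports the cystine for glutathione, fell with both siRNAs (-0.48 and -0.68), ABCC1, which exports glutathione conjugates, rose with both (0.47 and 0.39), and ABCC3 fell with si-LINC00673-2 (-0.43).

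In the next 3 lists, the shares of all tested genes that rose and fell are again 11.1% and 15.6% with si-LINC00673-1. With si-LINC00673-2 they are 11% and 23.1%. With no fold limit, more genes pass an unadjusted P of at most 0.05. With si-LINC00673-1, 4358 of all 12884 tested genes then lay above 0 and 4366 below. With si-LINC00673-2, 3468 lay above 0 and 5928 below. Of 13 tested genes of the thioredoxin system and peroxidases, 2 rose (PRDX1 and TXNIP, 15.4%) and 1 fell (PRDX5, 7.69%) with si-LINC00673-1. With si-LINC00673-2, 3 rose (PRDX1, PRDX4 and TXNRD2, 23.1% of the list) and 0 fell by limma, while 4 lay below 0 at an unadjusted P of at most 0.05 with no fold limit. PRDX1, the abundant peroxiredoxin that thioredoxin recharges, rose with both, from 265 ± 8.90 FPKM in si-NC libraries to 414 ± 11.6 and 427 ± 12.1 FPKM (n = 3 each), by 0.64 and 0.68. Of 8 genes of haem and iron handling, 0 were called by limma with si-LINC00673-1 (2 above and 4 below 0 at an unadjusted P of at most 0.05), and 2 rose (BLVRB and FTH1, 25%) and 1 fell (FECH, 12.5%) with si-LINC00673-2. The constitutive haem oxygenase HMOX2 stood at -0.087 and -0.15, in contrast to HMOX1. Of 13 tested genes of other detoxification, 2 rose (15.4%) and 0 fell by limma with si-LINC00673-1 (5 below 0 at an unadjusted P of at most 0.05), and 2 rose (15.4%) and 1 fell (AKR1C1, 7.69%) with si-LINC00673-2. OSGIN1, an oxidative stress-induced growth inhibitor, rose by 0.66 and 0.70, and EPHX1, the microsomal epoxide hydrolase, by 0.41 and 0.38.

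**Figure D4:**
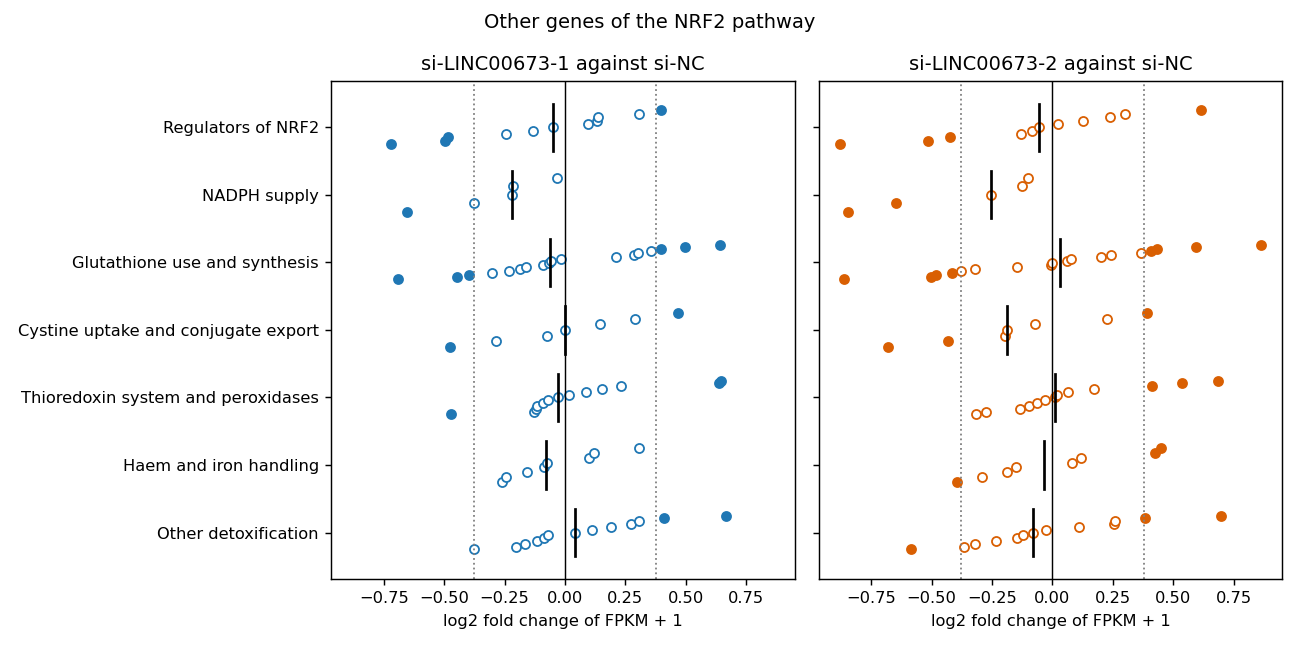
Log2 fold change of FPKM + 1 (horizontal axes) of 75 other genes of the NRF2 pathway in 7 lists, for each siRNA against si-NC, with filled points for genes that met the criteria, open points for the others, short vertical bars for list medians and dotted lines for the 1.3-fold limits. Filled points lie on both sides of 0 in the regulators, the glutathione genes and the transporters, and to the left in the NADPH genes. Both sides also hold filled points in the thioredoxin list with si-LINC00673-1, and in the haem and other detoxification lists with si-LINC00673-2.

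The likeness of the 9 genes was described by the Pearson r of log2(FPKM + 1) over the 9 libraries, which share 3 group means, so r mostly shows those means. Among the 36 pairs, TXN and TXNRD1 were the most alike (0.973), followed by HMOX1 and GSR (0.961) and HMOX1 and TXN (0.936). GCLC ran against TXN (-0.851) and TXNRD1 (-0.848). NFE2L2 had its highest r with SRXN1 (0.67) and NQO1 (0.652). For each of the 9, the most alike other gene was sought among tested known genes, with predicted genes left out. The gene with the highest r was RNF43 for HMOX1 (0.994), CNOT11 for NQO1 (0.99), SRP54 for GSR (0.992), TOMM6 for TXN (0.998) and PPTC7 for TXNRD1 (0.996). It was CDC42BPA for GCLC (0.991), MBIP for GCLM (0.963), UBE3C for SRXN1 (0.991) and RNF138 for NFE2L2 (0.948).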

How the data were processed

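Libraries labelled MDA-MB-453 (3 groups of 3) were sequenced on the BGISEQ-500 platform. The authors deposited 1 table of FPKM per gene and library, rounded to 2 decimals, and the submitters' processing notes name Bowtie2 and GRCh37.p13. The counting tool is not given in the sources used here. The table also holds the authors' log2 ratios, P values and q values, which were not used, and 4 lines without values, which were left out. The 9 genes and all lists were chosen with earlier results of these data known, and the motif and lists come from general knowledge. A gene of one pathway list and one of the cell line markers are not reported here and were left out of every list.

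Groups were read from the titles, and the siRNA sequences from the study's list of oligonucleotides by the same numbering, an assumption that no label settles. FPKM hold no counts, so the step that 1 fragment adds to the FPKM of a weakly expressed gene (transcripts of 300 to 900 bases) gave the depth. This covers counting error only. Genes whose mean reached 1 FPKM were tested with limma 3.58.1 (R 4.3.3, lmFit, eBayes with a trend) on log2(FPKM + 1), fitting the 9 libraries jointly (6 residual degrees of freedom), after a test on simulated data. Ratios were tested by exact permutation (scipy 1.17.1). GC content was known for 11388 of the 12884 tested genes (88.4%). The named genes are the 9 genes, all regulators and up to 3 genes of each other list. These had the largest mean change among those called in 1 direction with both siRNAs. The most alike known gene of each member is also named. Alternatives were the added value, filter, scaling, GAPDH, GC content, length, fold limit, adjusted P, trend, libraries in the fit, a block for the replicate label, leaving out single libraries and a looser motif.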

Additional observations from a re-analysis of the deposited data

Results flagged for a closer look

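The response to the siRNAs, each against the same si-NC libraries, differed between si-LINC00673-2 and si-LINC00673-1 in 5 of the 9 genes by the limma test of the difference itself (adjusted P of at most 0.05, by Benjamini-Hochberg over all tested genes). The log2 difference was -0.26 for SRXN1, -0.139 for GCLC and -0.13 for NQO1, each lower with si-LINC00673-2. It was 0.132 for TXNRD1 and 0.0968 for TXN, each higher with si-LINC00673-2. The differences of NQO1 and GCLC had an adjusted P above 0.05 after median-ratio scaling (-0.023 and -0.038), the GC correction (-0.039 and -0.040) and the length correction (-0.063 and -0.032), that of TXN after the length correction (0.021), and TXNRD1 and TXN turned below 0 relative to GAPDH (-0.18 and -0.21). Such differences were common, since 44% of all tested genes passed the same limit.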

How the results depend on the processing

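Division by GAPDH and the fold limit moved the most values, and beyond what each alternative does by construction, the cause was not tested. With no fold limit, 8724, 9396 and 6697 genes were called (si-LINC00673-1 and si-LINC00673-2 against si-NC, and si-LINC00673-2 against si-LINC00673-1), with a fold limit of 2 there were 366, 604 and 40, and with a mean of at least 5 FPKM there were 2211, 2714 and 547, where fewer genes were tested. Relative to GAPDH, 8729 genes were called with si-LINC00673-2 and 6764 between the siRNAs. A GC correction gave 577 between the siRNAs and an added 0.1 FPKM gave 1656.

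Of the 9 genes, the minimum of 5 FPKM left no value for HMOX1 and GCLM, and 1 gene higher with si-LINC00673-1, where 926 of 8610 tested genes were. The number higher with si-LINC00673-1 was also 1 relative to GAPDH and after the GC correction, where GSR stood at 0.29 and 0.35. Of all tested genes, 831 of 12884 and 1261 of 11388 were higher there. With a fold limit of 2, 0 were called higher with either siRNA, where 105 and 214 of 12884 tested genes were. HMOX1 (0.77 and 0.71), GSR (0.41), TXNRD1 (0.42) and TXN (0.42) thus lost their calls. By limma with no fold limit 7 and 6 were higher and 1 and 2 lower at an unadjusted P of at most 0.05. Of all 12884 tested genes, 4358 and 3468 were higher and 4366 and 5928 lower at that limit. The genes gained with no fold limit against si-NC were NQO1 (0.25 and 0.12), GCLM (0.30 and 0.22), GCLC (-0.098 and -0.24), SRXN1 (0.14 and -0.12), TXNRD1 (0.28) and TXN (0.32) with si-LINC00673-1, and GSR (0.35) with si-LINC00673-2. Between the siRNAs 2 were then higher, TXNRD1 (0.13) and TXN (0.097), and 3 lower, NQO1 (-0.13), GCLC (-0.14) and SRXN1 (-0.26). Of all 12884 tested genes, 1635 were higher and 5062 lower in that comparison. A length correction brought TXN to 0.41 with si-LINC00673-1 and GSR to 0.48 with si-LINC00673-2, median-ratio scaling brought GSR to 0.45, and the length correction turned SRXN1 to 0.0028.

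Relative to GAPDH, NFE2L2 turned to -0.023 with si-LINC00673-1. With si-LINC00673-2, 0 were then higher and 3 lower, where 340 and 8389 of all 12884 tested genes were. HMOX1 stood at 0.28, NFE2L2 at -0.42, NQO1 at -0.31, GCLM at -0.21, GCLC at -0.67, TXNRD1 at -0.012, SRXN1 at -0.55, TXN at -0.011 and GSR at -0.080. Between the siRNAs 5 were then lower, NFE2L2 (-0.40), NQO1 (-0.44), GCLM (-0.39), GCLC (-0.45) and SRXN1 (-0.57), and TXNRD1 (-0.18) and TXN (-0.21) reversed. Of all 12884 tested genes, 6705 were lower in this comparison relative to GAPDH. Small differences between the siRNAs also changed sign with median-ratio scaling (NFE2L2 0.011, HMOX1 0.027, GCLM 0.0075 and GSR 0.041), with the GC correction (NFE2L2 0.00059, GCLM 0.054 and GSR 0.018) and with the length correction (GCLM 0.034 and GSR 0.025).

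With single libraries left out, small values moved most. Between the siRNAs HMOX1 lay between -0.094 and -0.015 and GSR between -0.090 and -0.027. NFE2L2 with si-LINC00673-2 lay between -0.045 and 0.038, GSR with si-LINC00673-2 between 0.32 and 0.39, the genes higher with si-LINC00673-2 numbered 3 to 4, and the ratio of TXN to TXNRD1 with si-LINC00673-2 differed from si-NC by -0.020 to 0.041, and by -0.0050 with 0.1 FPKM added. The looser core TGANNNNGC was found in 5 of the 9 promoter windows (41.8% of all windows). The replicate labels did not pair the libraries (correlation of deviations -0.239 to 0.104), and with the replicate block 3449, 4400 and 988 genes were called, with no change of a call by the criteria among the 9 genes, while the adjusted P of GCLC with si-LINC00673-1 (0.0818) and of TXN between the siRNAs (0.0585) passed 0.05. Of 392 fold changes of the 9 genes recomputed against si-NC, 356 kept their direction and side of the criteria, as did 175 of 196 between the siRNAs. Many of these could not change direction, so the counts overstate how stable the values are. The filters, fold limits, adjusted P, trend and replicate block leave the fold change itself as it was. So does leaving out libraries of the group not compared. For the least expressed gene, HMOX1, the depth gives 81 to 85 fragments in a si-NC library.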

Other observations

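TXNIP, the protein that binds and inhibits thioredoxin, was chosen here after its values were seen. It had 27.5 ± 1.40 FPKM (SD, n = 3) in si-NC libraries, 43.5 ± 1.79 FPKM (n = 3) with si-LINC00673-1 and 22.5 ± 0.798 FPKM (n = 3) with si-LINC00673-2. It rose by a log2 fold change of 0.65 with si-LINC00673-1 (adjusted P = 1.9e-06), stood at -0.28 with si-LINC00673-2 (adjusted P = 0.00041), and was lower with si-LINC00673-2 than with si-LINC00673-1 by -0.92 (limma, adjusted P = 1.8e-06). TXN itself was higher with both siRNAs, apart from -0.011 with si-LINC00673-2 relative to GAPDH.

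The small MAF genes MAFK and MAFF also differed between the siRNAs. MAFK was higher with si-LINC00673-2 than with si-LINC00673-1 by 0.59 (adjusted P = 0.00064) and MAFF by 0.55 (adjusted P = 0.00047), but relative to GAPDH by 0.29 and 0.24, below the fold limit. FTH1, the ferritin heavy chain, had 3588 ± 125 FPKM (n = 3) in si-NC libraries, 4432 ± 12 FPKM (n = 3) with si-LINC00673-1 and 4813 ± 216 FPKM (n = 3) with si-LINC00673-2, and met the criteria with si-LINC00673-2 (log2 fold change 0.42, adjusted P = 3.5e-06). This rise did not exceed that of GAPDH with the same siRNA (0.429).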
